A study of Mus musculus with 13 samples.

Results

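The antiviral effectors MX, viperin and tetherin were followed as 9 genes, Mx1, Mx2, Rsad2, Bst2, Isg20, Samhd1, Ifi44, Ifi35 and Xaf1, of the 54532 genes in the count table. They were found by matching each Ensembl identifier, without its version, to the gene symbol in the GENCODE mouse annotation of build GRCm38, and all 9 had reads. After ADAR1i-124 alone, all 9 were lower in total RNA than after DMSO, by 2.58-fold for Samhd1 to 675-fold for Ifi44, where 7.26% of all genes were at least 2-fold lower. After 5-Aza-CdR alone none differed by 2-fold in total RNA, where 15.7% of all genes were higher and 9.91% lower. In the precipitated RNA of cells given both compounds, 8 of the 9 were at least 2-fold above the level after ADAR1i-124 alone, against 12.5% of all genes with J2 and 9.9% with Z22. Against 5-Aza-CdR alone, 0 of 9 were higher with J2 (1.26% of all genes) and 2 with Z22 (3.54%). Against DMSO, 0 were higher with J2 (6.97%) or Z22 (18.1%), and 1 was lower with Z22 (17.6%).

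The libraries came from Yumm1.7 cells, a mouse cutaneous melanoma line labelled as wild type, which received DMSO, 10 μM ADAR1i-124 (a small-molecule inhibitor of the RNA editing enzyme ADAR1) for 12 h, 1 μM 5-Aza-CdR (a DNA methyltransferase inhibitor) for 72 h, or both compounds. RNA was sequenced after ribosomal RNA depletion as total RNA, or after RNase I digestion and immunoprecipitation with J2, an antibody to double-stranded RNA, with Z22, an antibody to Z-form nucleic acid, or with IgG. Each condition had 1 library, so no difference between treatments has a replicate check and no test was made between treatments. For the combination the study describes 5-Aza-CdR at 1 μM for 72 h and then ADAR1i-124 for 12 h, at 10 μM in one description and at 1 μM as another dose. The labels do not say which dose a combination library had, and the sources used here do not say which treatment the IgG library's cells had received.

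Type I interferon released by cells that sense foreign or unedited double-stranded RNA signals through its receptor and JAK kinases to transcription factors that bind the interferon-stimulated response element (ISRE) and switch on a large set of genes. The products described here act at different stages of viral growth. MX proteins trap viral nucleocapsids, viperin makes a chain-terminating nucleotide, tetherin holds budding particles at the cell surface, ISG20 degrades RNA and SAMHD1 breaks down deoxynucleotides.

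Total counts were 17015425 to 34571822 in the 3 total RNA libraries used, 11767409 to 14396132 with J2, 8167960 to 14663357 with Z22 and 15324595 with IgG. The total RNA library of the combination, with 1245894 counts, follows the strand opposite to the annotated genes and was left out of all comparisons. The Z22 library of DMSO stood apart: Gm42418, a locus that overlaps ribosomal RNA sequence, took 34.9% of its counts against 10.6% to 15.8% in the other 3 Z22 libraries, and the median gene was 0.81 to 1.06 higher in those 3 on the log2 scale. Counts were therefore divided by the library total and multiplied by 1000000 (CPM), and each log2 change, taken after adding 0.5 CPM, was expressed relative to the median change of the genes that averaged 1 CPM or more over both libraries. A gene is called higher or lower when it passed 2-fold on that scale, and a fold given between 2 libraries is the plain CPM ratio with its exact 95% interval, which covers counting error only. Of 8 melanocyte markers, only Mitf was above 1 CPM (9.68 to 33.1 CPM), while Tyr and Tyrp1 had no count in any of the 12 libraries used and Sox10 and Mlana stayed under 0.12 CPM.

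Promoter sequences from RefSeq (GRCm38.p6), 250 bases before to 50 bases after the start, were found for 7 of the 9 genes, and are shown for the 5 with a match because the genes are defined by their response to interferon. The ISRE was searched as GAAANNGAAA and the gamma-activated sequence (GAS) as TTCNNNGAA, both strands being read. An ISRE match lay in the promoters of Rsad2 and Bst2, that is in 2 of 7 genes, against 3.99% of all 27025 genes and 3.44% of their 32851 promoters. A GAS match lay in Bst2, Isg20, Samhd1 and Ifi35, that is in 4 of 7, against 9.55% of genes and 8.30% of promoters. Isg20 had 3 promoter windows, of which 2 held no match. Each stretch is written 5′ to 3′ along its gene, with the matched bases in capitals. The Rsad2 stretch is chr12:26456553-26456582 on the reverse strand, and its match begins 120 bases before the start and reads as the ISRE on the opposite strand. The Bst2 stretch is chr8:71537583-71537612 on the reverse strand, and holds 2 ISRE matches and 1 GAS match that overlap each other, the first matched base being 136 bases before the start. The other stretches are chr7:78913341-78913369 on the forward strand (Isg20, GAS match from 73 bases before the start), chr2:157135313-157135341 on the reverse strand (Samhd1, from 235 bases before) and chr11:101448409-101448437 on the forward strand (Ifi35, from base 7 after the start). No match was found in the windows of Ifi44 and Xaf1. A match is a description of letters and not a site shown to be used.
Rsad2: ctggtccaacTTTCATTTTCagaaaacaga
Bst2: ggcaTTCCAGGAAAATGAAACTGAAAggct
Isg20: ctggggagggTTCTTGGAAtttttccttt
Samhd1: acaccaccctTTCGGAGAAacacaagggc
Ifi35: agaagcagaaTTCACAGAAatgaaagtgg

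The first question was how these transcripts differed in total RNA between cells given ADAR1i-124 and cells given DMSO. Between ADAR1i-124 and DMSO, 9 of 9 genes were at least 2-fold lower, beside 7.26% of the 13693 genes compared (8.93% were higher). Their median change was −4.20 (log2, relative to the median gene), and Ifi44 was the lowest of all 13693 genes on this scale. That rank depends on the 0.5 CPM added, since the plain ratio of Oas2 was lower still, and Ifi44 rests on 7 counts. In these bulk libraries, fewer cells expressing a gene and less RNA per cell cannot be told apart. The plot of levels in 12 libraries shows the drop for every gene.

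**Figure D1:**
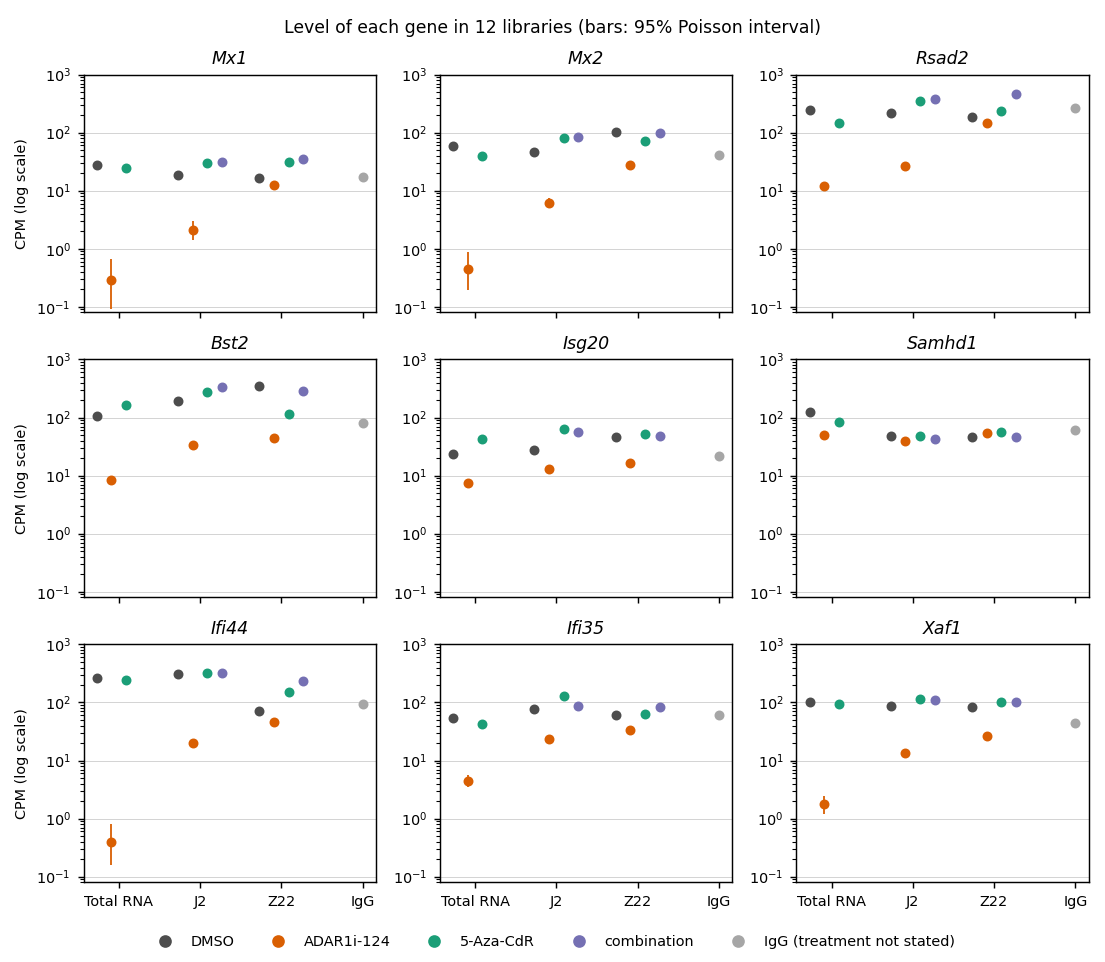
Level of each of the 9 genes in 12 libraries, in CPM on a log axis, by fraction (total RNA, J2, Z22, IgG) and treatment (colour), with bars for the 95% Poisson interval of the count. The ADAR1i-124 points in total RNA are the lowest for 8 genes, from 0.284 CPM for Mx1 to 11.9 CPM for Rsad2, whereas Samhd1 stays between 38.8 and 127 CPM throughout.

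Mx1 and Mx2 encode dynamin-like GTPases that block viral nucleocapsids, Mx1 in the nucleus and Mx2 in the cytoplasm. The genes are neighbours on chromosome 16, Mx1 (ENSMUSG00000000386) on the reverse strand from 97447035 to 97462907 and Mx2 (ENSMUSG00000023341) on the forward strand from 97535308 to 97560900, where the annotation calls it a polymorphic pseudogene. They are related in sequence, and how the authors' counting treated reads that fit both is not given in the sources used here.

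Mx1 had 27.2 CPM with DMSO, 0.284 CPM with ADAR1i-124 and 24.4 CPM with 5-Aza-CdR in total RNA. With J2 it had 18.5 CPM (DMSO), 2.08 CPM (ADAR1i-124), 29.9 CPM (5-Aza-CdR) and 30.7 CPM (combination). With Z22 the values in the same order were 16.5, 12.5, 31.5 and 34.8 CPM, and IgG gave 17.2 CPM. The ADAR1i-124 library was thus the lowest in each fraction, and in total RNA it rested on 5 counts against 463 with DMSO. The CPM ratio was 95.9-fold lower in total RNA (40.8 to 297), 8.86-fold lower with J2 (6.04 to 13.4) and 1.32-fold lower with Z22 (1.06 to 1.65). These folds are before centring, and on the centred scale the Z22 change was −1.20.

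Mx2 stood at 58.1 CPM with DMSO, 0.454 CPM with ADAR1i-124 (8 counts) and 39.9 CPM with 5-Aza-CdR in total RNA. With J2 it had 46.2, 6.18, 80.9 and 83.4 CPM in the order used for Mx1. The Z22 values were 103, 27.1, 70.8 and 99.4 CPM, and the IgG value was 41.9 CPM. Mx2 followed Mx1 in the total RNA and J2 libraries, and differed from it in Z22, where the DMSO library was the highest of all 12 for Mx2 and the second lowest of its fraction for Mx1. ADAR1i-124 against DMSO was 128-fold lower in total RNA (64.7 to 297), 7.47-fold lower with J2 (5.97 to 9.46) and 3.80-fold lower with Z22 (3.37 to 4.28).

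Rsad2 (ENSMUSG00000020641; chromosome 12, 26442746 to 26456452, reverse strand) encodes viperin, a radical SAM enzyme. Its total RNA levels were 242 CPM with DMSO, 11.9 CPM with ADAR1i-124 and 144 CPM with 5-Aza-CdR. With J2 they were 217 CPM (DMSO), 27.0 CPM (ADAR1i-124), 357 CPM (5-Aza-CdR) and 376 CPM (combination). With Z22 they were 185, 145, 234 and 458 CPM in the same order, and with IgG 269 CPM. Rsad2 was the only one of the 9 whose level after 5-Aza-CdR in total RNA ranked under its Z22 level after ADAR1i-124, although the Poisson intervals of those 2 levels overlap. With ADAR1i-124 it was 20.3-fold lower in total RNA (17.7 to 23.4), 8.05-fold lower with J2 (7.24 to 8.98) and 1.28-fold lower with Z22 (1.20 to 1.36).

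Bst2 (ENSMUSG00000046718; chromosome 8, 71534255 to 71537456, reverse strand) encodes tetherin, a membrane protein anchored at both ends. In total RNA it had 105 CPM with DMSO, 8.29 CPM with ADAR1i-124 and 167 CPM with 5-Aza-CdR. J2 libraries held 195 CPM (DMSO), 33.6 CPM (ADAR1i-124), 271 CPM (5-Aza-CdR) and 329 CPM (combination). Z22 libraries held 348, 45.1, 113 and 291 CPM in the same order, and IgG 80.5 CPM. Bst2 was one of the pair of genes, with Isg20, that were higher after 5-Aza-CdR than after DMSO in total RNA, and its highest value was in the Z22 library of DMSO. The ADAR1i-124 level was 12.7-fold lower than DMSO in total RNA (10.7 to 15.2), 5.79-fold lower with J2 (5.24 to 6.39) and 7.71-fold lower with Z22 (7.09 to 8.40), so Bst2 had the largest Z22 ratio of the 9.

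Isg20 (ENSMUSG00000039236; chromosome 7, 78913424 to 78920396, forward strand) encodes a 3′ exonuclease. It had 23.2 CPM with DMSO, 7.38 CPM with ADAR1i-124 and 41.9 CPM with 5-Aza-CdR in total RNA. With J2 it had 27.2 CPM (DMSO), 13.2 CPM (ADAR1i-124), 62.5 CPM (5-Aza-CdR) and 56.1 CPM (combination). With Z22 it had 46.2, 16.6, 52.8 and 49.0 CPM in the same order, while IgG gave 21.3 CPM. Its range, 8.47-fold from the lowest to the highest library, was the narrowest after that of Samhd1. The plain 5-Aza-CdR value was above DMSO in each fraction, although in Z22 the interval of the ratio (0.995 to 1.31) included 1. In total RNA the ADAR1i-124 level was 3.15-fold lower than DMSO (2.57 to 3.87).

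Samhd1 (ENSMUSG00000027639; chromosome 2, 157097533 to 157135265, reverse strand) encodes a deoxynucleotide triphosphohydrolase. In total RNA it had 127 CPM with DMSO, 49.2 CPM with ADAR1i-124 and 84.6 CPM with 5-Aza-CdR. The 8 antibody-precipitated libraries held 38.8 to 56.6 CPM and IgG held 60.9 CPM. Samhd1 was the exception in the group: its range over the 12 libraries was 3.27-fold, its lowest library was J2 with ADAR1i-124, and 9 of its 11 neighbouring pairs of levels had overlapping Poisson intervals. The total RNA ratio was 2.58-fold lower with ADAR1i-124 (2.38 to 2.795), the smallest of the 9. With Z22 the plain ratio was 1.18-fold higher (1.05 to 1.34) and the centred change −0.57.

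Ifi44 (ENSMUSG00000028037; chromosome 3, 151730922 to 151749960, reverse strand) encodes a cytoplasmic interferon-induced protein. It had 268 CPM with DMSO, 0.397 CPM with ADAR1i-124 and 243 CPM with 5-Aza-CdR in total RNA, that is 4564, 7 and 8384 counts. J2 libraries held 304 CPM (DMSO), 20.4 CPM (ADAR1i-124), 328 CPM (5-Aza-CdR) and 316 CPM (combination), and Z22 libraries held 72.5, 46.0, 149 and 230.0 CPM in the same order, against 94.7 CPM with IgG. The gene spanned 825-fold over the 12 libraries, the widest range of the 9. ADAR1i-124 was 675-fold below DMSO in total RNA (327 to 1680.1), 14.9-fold with J2 (13.2 to 16.9) and 1.58-fold with Z22 (1.41 to 1.76).

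Ifi35 (ENSMUSG00000010358; chromosome 11, 101448407 to 101458698, forward strand) encodes a leucine zipper protein. Total RNA held 54.5 CPM with DMSO, 4.43 CPM with ADAR1i-124 and 42.6 CPM with 5-Aza-CdR. With J2 the values were 76.9 CPM (DMSO), 23.4 CPM (ADAR1i-124), 128 CPM (5-Aza-CdR) and 86.7 CPM (combination). With Z22 they were 60.3, 34.1, 62.8 and 83.3 CPM in the same order, with 60.7 CPM for IgG. The combination stood under 5-Aza-CdR with J2 and above it with Z22. Its level with ADAR1i-124 was 12.3-fold below DMSO in total RNA (9.76 to 15.7), 3.29-fold with J2 (2.90 to 3.73) and 1.77-fold with Z22 (1.56 to 2.002). An antisense gene, Gm11626, shares 290 exon bases with Ifi35 and had 3 to 12 counts in each of the 12 libraries used.

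Xaf1 (ENSMUSG00000040483; chromosome 11, 72301629 to 72313733, forward strand) encodes a zinc finger protein that binds the apoptosis inhibitor XIAP. It had 104 CPM with DMSO, 1.76 CPM with ADAR1i-124 and 92.9 CPM with 5-Aza-CdR in total RNA. With J2 it had 86.7 CPM (DMSO), 13.7 CPM (ADAR1i-124), 114 CPM (5-Aza-CdR) and 110.2 CPM (combination), and with Z22 82.6, 26.3, 100.4 and 103 CPM in the same order, against 44.6 CPM with IgG. The 3 ADAR1i-124 libraries were the lowest of the 12. ADAR1i-124 stood 59.0-fold below DMSO in total RNA (41.4 to 87.1), 6.33-fold with J2 (5.44 to 7.41) and 3.14-fold with Z22 (2.77 to 3.56).

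The lowest places in the order of the libraries were shared by most of the genes, and the highest were not. Total RNA with ADAR1i-124 was the lowest of 12 for 8 genes, J2 with ADAR1i-124 was the second lowest for the same 8, and Z22 with ADAR1i-124 was the third lowest for 7 of them. Some neighbours in the order could not be separated by counting error: of 11 neighbouring pairs, 8 overlapped in their Poisson intervals for Mx1, 5 for Mx2, 4 for Rsad2, 2 for Bst2, 8 for Isg20, 9 for Samhd1, 3 for Ifi44, 5 for Ifi35 and 7 for Xaf1. For Isg20 the overlapping pairs include the J2 and Z22 libraries with ADAR1i-124. 

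Levels can be compared between genes only per length of exon. In total RNA with DMSO, Bst2 led with 117 CPM per kb, followed by Rsad2 (55.8), Ifi44 (43.8), Ifi35 (31.5), Xaf1 (22.1), Mx2 (16.1), Samhd1 (13.9), Isg20 (12.5) and Mx1 (7.19). With ADAR1i-124, Bst2 remained first with 9.18 CPM per kb, Samhd1 (5.37) and Isg20 (3.97) came next, and Ifi44 stood at 0.0648 CPM per kb. The order of the 9 per kb thus differed between the DMSO and ADAR1i-124 libraries, with Samhd1 in the seventh place in one and the second in the other. After ADAR1i-124 the lowest 3, Mx2, Mx1 and Ifi44, rest on 5 to 8 counts each, and their intervals overlap.

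Most other interferon genes were also lower in total RNA, where 7.26% of all genes were at least 2-fold lower and 8.93% higher. Of 46 other interferon-stimulated effectors, 43 passed the filter on low values, and 40 of these were at least 2-fold lower with ADAR1i-124 and 0 higher, with a median of −3.81. Within 2-fold, 1 of the 43 lay above the median gene. With 0.5 CPM added, the largest changes were in Iigp1 (132 CPM with DMSO and 0.227 CPM with ADAR1i-124), Oas2 (94.7 and 0.114 CPM) and Oasl2 (303 and 1.59 CPM). Iigp1 and Oas2 rest on 4 and 2 counts with ADAR1i-124, and the plain drop was larger for Oas2 (834-fold) than for Iigp1 (583-fold). Iigp1 encodes an immunity-related GTPase, Oas2 an oligoadenylate synthetase and Oasl2 a related protein. Of 20 genes of interferon sensing and signalling, 18 were compared, 11 were at least 2-fold lower and 0 higher, and the median was −2.11. Among these 18, 4 lay above the median gene. Here Irf7, the transcription factor that amplifies interferon, had 83.6 and 0.851 CPM, Dhx58, an RNA sensor of the RIG-I family, 75.2 and 2.27 CPM, and Zbp1, the sensor of Z-form RNA, 25.1 and 0.681 CPM.

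The second question was how the same transcripts behaved in precipitated RNA. With J2, ADAR1i-124 against DMSO left 8 of 9 at least 2-fold lower, beside 10.8% of 13522 genes (7.37% were higher), with a median of −2.62. Samhd1 was the one inside the line, at −0.28. With Z22, 8 of 9 were at least 2-fold lower relative to the median gene, beside 17.5% of 12799 genes (17.6% were higher), with a median of −1.62. Without centring on the median gene, 4 of 9 were at least 2-fold lower with Z22, beside 5.13% of all genes on that scale, at a median of −0.81, and Samhd1 was 1.18-fold higher, so the Z22 count depends on the centring.

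**Figure D2:**
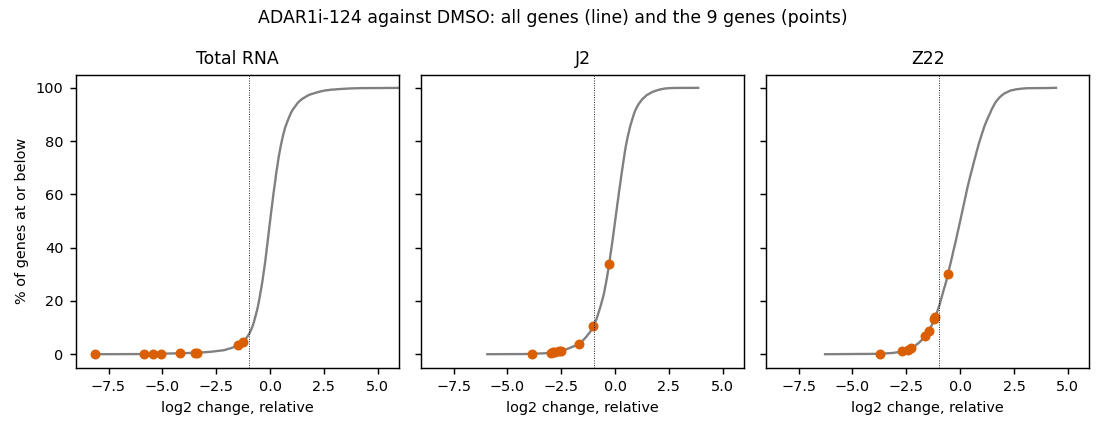
Cumulative share of all compared genes (line, percent at or below) against the log2 change of ADAR1i-124 relative to DMSO and to the median gene, in total RNA, J2 and Z22, with the 9 genes as points and the 2-fold line dotted. In total RNA all 9 points lie left of the line, from −8.13 (Ifi44) to −1.27 (Samhd1), and with J2 and Z22 the points sit nearer the middle, except Bst2 and Isg20 with Z22.

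Side by side, the change with ADAR1i-124 was smaller in size with J2 than in total RNA for all 9 genes. The difference, J2 minus total RNA, had a median of 1.69 on the log2 scale and ran from 0.48 for Isg20 to 4.27 for Ifi44. For Z22 minus total RNA the median was 2.995, and 7 of 9 were above 0, the exceptions being Bst2 (−0.24) and Isg20 (−0.76). On plain library totals these were at 0.66 and 0.14, and 9 of 9 were above 0. In Z22, Bst2 stood at −3.74, Mx2 at −2.72, Xaf1 at −2.44 and Isg20 at −2.26, while Rsad2 (−1.16), Mx1 (−1.20) and Ifi44 (−1.46) were nearer to 0. These differences rest on 1 library each and were not tested. The share of all genes with a smaller change in precipitated RNA was not counted. The other interferon-stimulated effectors also had a smaller median change there, with −3.81 in total RNA, −1.64 with J2 and −1.52 with Z22.

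**Figure D3:**
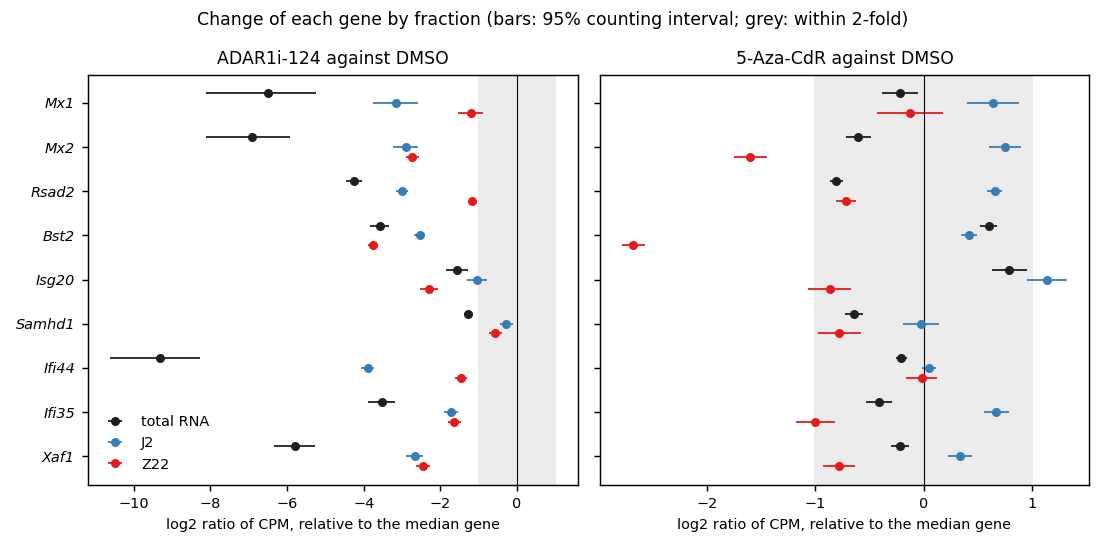
Log2 ratio of CPM relative to the median gene for each of the 9 genes, ADAR1i-124 against DMSO (left) and 5-Aza-CdR against DMSO (right), in total RNA (black), J2 (blue) and Z22 (red), with bars for the 95% counting interval and a grey band within 2-fold. No pseudocount is added here. For ADAR1i-124 the black points lie left of the others for all genes but Bst2 and Isg20, and for 5-Aza-CdR the only point beyond 2-fold on the right is Isg20 with J2.

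The ratio of precipitated to total RNA within one treatment gives the same values from another side. With DMSO, J2 against total RNA had a median of 0.20 over the 9 genes, and 1 was at least 2-fold higher (Bst2, 1.24; 10.8% of all genes) and 1 lower (Samhd1, −1.05; 7.24%). On plain library totals this median was −0.16, with 0 higher (5.56%) and 1 lower (17.3%). With 5-Aza-CdR the median was 0.94 and 4 of 9 were higher (9.95%) and 0 lower (9.56%). With ADAR1i-124 it was 2.26, and 8 of 9 were at least 2-fold higher, beside 8.59% of all genes, and 0 lower (8.1%). On plain library totals 3 of 9 were higher with 5-Aza-CdR (4.94%; median 0.57) and 7 of 9 with ADAR1i-124 (5.04%; median 1.96). There 0 were lower with either (18.9% and 14.7%). Ifi44 was 51.2-fold higher with J2 than in total RNA (24.5 to 129) and Mx2 13.6-fold (6.62 to 32.5), both resting on fewer than 10 counts in total RNA.

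For Z22 against total RNA the median was 0.86 with DMSO (4 of 9 higher, beside 24.8%, and 0 lower, beside 23.8%), 0.53 with 5-Aza-CdR (1 of 9 higher, 9.94%, and 0 lower, 10.2%) and 3.85 with ADAR1i-124 (8 of 9 higher, 8.11%, and 0 lower, 5.54%). On plain library totals the direction with DMSO turned, with a median of −0.33, 1 of 9 higher (Bst2; 6.61%) and 2 lower (54.6%), while ADAR1i-124 kept 8 of 9 higher (4.68%) at a median of 3.55. With 5-Aza-CdR 0 were higher (7.01%) and 0 lower (14.2%) on that scale, at a median of 0.33. Ifi44 was 116-fold higher (55.9 to 289), Mx2 59.8-fold (30.04 to 139) and Mx1 44.0-fold (18.5 to 137) with Z22 than in total RNA after ADAR1i-124. The Z22 ratio of Bst2 was 2.68 with ADAR1i-124 and 2.90 with DMSO on the log2 scale relative to the median gene, and on plain library totals it was 0.66 higher with ADAR1i-124. All 9 genes were also present in the IgG library, at 17.2 CPM (Mx1) to 269 CPM (Rsad2).

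**Figure D4:**
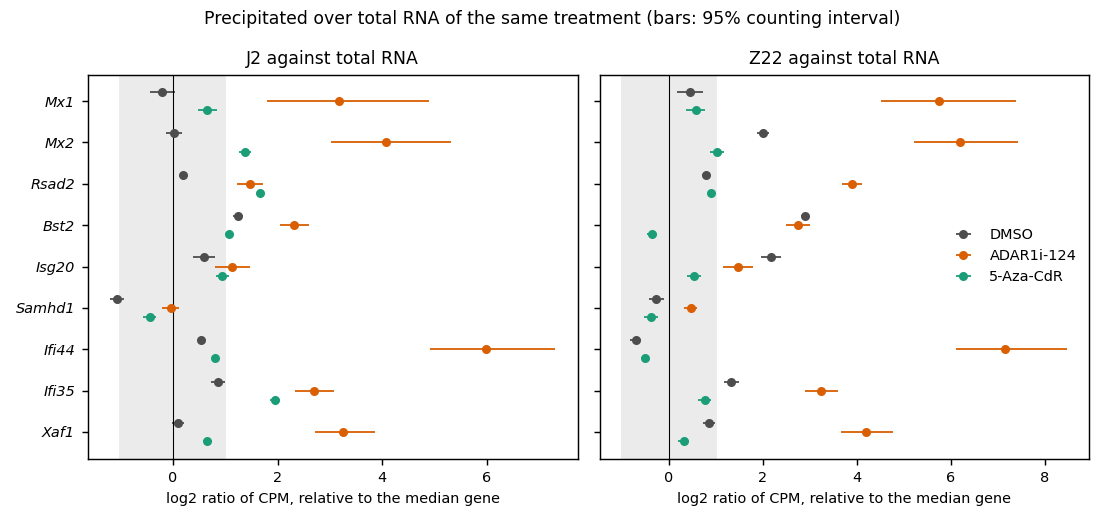
Log2 ratio of precipitated over total RNA of the same treatment, relative to the median gene, for J2 (left) and Z22 (right), with DMSO in grey, ADAR1i-124 in orange and 5-Aza-CdR in green, and bars for the 95% counting interval. The orange points are the furthest right for most genes, up to 5.98 (J2) and 7.16 (Z22) for Ifi44, and the grey band marks 2-fold.

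Whether the fractions differed over the treatments together was tested with edgeR's quasi-likelihood test on 11 libraries, with treatment as a block and Benjamini-Hochberg adjustment over 14071 genes. At an adjusted p under 0.05, 0 of 9 genes were called in J2 against total RNA, where 0.291% of all genes were called higher and 0.0284% lower. Ifi35 came nearest, with a log2 difference of 1.77 and an adjusted p of 0.131. For Z22 against total RNA 0 of 9 were called, beside 0.64% higher and 0.142% lower, and Ifi35 was again nearest (1.79, adjusted p = 0.0720), followed by Isg20 (1.40, adjusted p = 0.0757) and Mx2 (2.55, adjusted p = 0.0952). Between Z22 and J2, 0 of 9 genes and 0% of all genes were called. At an unadjusted p under 0.05 the counts were 3, 6 and 0 of 9. The share of all genes at that level was not counted, so nothing is read from these counts. DESeq2 on the same design called 1 (Ifi35), 6 (Mx2, Rsad2, Bst2, Isg20, Ifi35 and Xaf1) and 0 higher. Of all genes it called 2.83%, 7.77% and 1.83% higher.

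Against IgG the J2 libraries differed by treatment. With DMSO the median of the 9 was 0.34 and 2 were at least 2-fold higher, Ifi44 (1.68) and Bst2 (1.27), beside 13.5% of all genes, and 0 lower (8.89%). With 5-Aza-CdR 5 of 9 were higher (12.1%) and 0 lower (6.24%), at a median of 1.02. With the combination 4 of 9 were higher (15.6%) and 0 lower (10.4%), at a median of 0.86. With ADAR1i-124 0 of 9 were higher (5.72%) and 7 were lower (4.41%), at a median of −1.66, Rsad2 by 9.98-fold (8.99 to 11.1) and Mx1 by 8.24-fold (5.63 to 12.5). For Z22 the medians were 0.82 with DMSO (4 higher, 24.9%, and 0 lower, 24.2%), −0.70 with ADAR1i-124 (0 higher, 7.87%, and 0 lower, 1.48%), 0.48 with 5-Aza-CdR (1 higher, 17.2%, and 0 lower, 8.32%) and 1.17 with the combination (5 higher, 16.8%, and 0 lower, 10.9%). On plain library totals the Z22 median with DMSO was −0.01 (3 higher, 11.3%, and 0 lower, 45.4%), and Rsad2, Samhd1 and Ifi44 were at 0.687, 0.764 and 0.765 of their IgG level. On the same scale 1 of 9 was lower in Z22 with ADAR1i-124 (1.85%). Since the treatment of the IgG cells is not given, a level of these genes under IgG cannot be told apart from a difference in their expression.

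The third question was what 5-Aza-CdR did alone. In total RNA 0 of 9 genes passed 2-fold in either direction, where 15.7% of 14391 genes were higher and 9.91% lower, and the median was −0.22. The counting interval of the plain CPM ratio lay under 1 for 6 genes: Rsad2 (0.595, 0.571 to 0.620), Samhd1 (0.667, 0.631 to 0.706), Mx2 (0.687, 0.633 to 0.746), Ifi35 (0.782, 0.720 to 0.850), Xaf1 (0.895, 0.844 to 0.949) and Ifi44 (0.904, 0.872 to 0.937). For Mx1 (0.896, 0.799 to 1.01) it included 1. It lay above 1 for Bst2 (1.58, 1.50 to 1.67) and Isg20 (1.80, 1.61 to 2.02). The share of all genes whose interval excludes 1 was not counted, so no direction of the 9 as a group is read from these intervals. With J2 the median was 0.62 and 1 gene, Isg20 (2.29-fold, 2.02 to 2.61), was at least 2-fold higher, beside 7.81% of 14007 genes, and 0 were lower (6.6%). The J2 ratios of Mx1 (1.62), Mx2 (1.75), Rsad2 (1.64) and Ifi35 (1.66) were close to each other, and those of Samhd1 (1.03) and Ifi44 (1.08) were near 1.

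With Z22, 5-Aza-CdR against DMSO gave 3 of 9 at least 2-fold lower (Bst2, −2.68; Mx2, −1.60; Ifi35, −1.001) and 0 higher, beside 19.3% and 18.4% of 13716 genes, and a median of −0.78. On plain library totals the median was 0.28, and only Bst2 and Mx2 kept their sign under all 5 scalings tried, so a direction for the other 7 cannot be given in this fraction. The median gene itself was 1.06 higher in the 5-Aza-CdR library of Z22 on that scale.

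The last question was what the combination added in precipitated RNA. With J2, 8 of 9 genes were at least 2-fold higher than with ADAR1i-124 alone, beside 12.5% of 13971 genes, and 0 lower (7.12%), with a median of 3.17. The ratios were 15.5-fold for Ifi44 (13.8 to 17.5), 14.7-fold for Mx1 (10.1 to 22.1), 13.9-fold for Rsad2 (12.6 to 15.5), 13.5-fold for Mx2 (10.8 to 16.9) and 9.79-fold for Bst2 (8.90 to 10.8). Xaf1 (8.05-fold), Isg20 (4.25-fold) and Ifi35 (3.70-fold) followed, and Samhd1 (1.10-fold, 0.976 to 1.25) could not be separated from no change by counting error. Against 5-Aza-CdR alone, 0 of 9 passed 2-fold in J2, beside 1.26% higher and 0.747% lower, with a median of −0.10. Ifi35 differed most, at 0.678 of its 5-Aza-CdR level (0.627 to 0.734), and Mx1, Mx2, Ifi44 and Xaf1 had intervals that include 1. Against DMSO, 0 of 9 passed 2-fold (6.97% higher, 4.92% lower; median 0.61), and Isg20 was nearest at 0.92.

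With Z22, 8 of 9 were at least 2-fold higher in the combination than with ADAR1i-124 alone, beside 9.9% of 13708 genes, and 0 lower (6.31%), with a median of 1.66. Bst2 led with 6.45-fold (5.92 to 7.03), then came Ifi44 (5.00-fold, 4.58 to 5.46), Xaf1 (3.90-fold) and Mx2 (3.66-fold), while Samhd1 was at 0.851 (0.755 to 0.958). Against 5-Aza-CdR alone, 2 of 9 were higher, Bst2 (2.57-fold, 2.39 to 2.77) and Rsad2 (1.96-fold, 1.85 to 2.07, and 1.15 on the centred log2 scale), beside 3.54% of 14365 genes, and 0 lower (4.7%). The Z22 comparison of the combination with DMSO gave 1 of 9 lower (Bst2, −1.08; 17.6%) and 0 higher (18.1%), with a median of −0.51, and shares the library of DMSO that stood apart.

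The other effectors had similar counts in these comparisons. With J2 the combination was at least 2-fold above ADAR1i-124 alone for 40 of 45 (median 2.61) and with Z22 for 37 of 44 (median 1.66), and 0 were lower in both. The largest J2 values were in Slfn5 (24.5 CPM and 0 counts), Ifit3 (640 and 18.3 CPM) and Ifit3b (246 and 7.22 CPM). For the signalling genes the counts were 11 of 17 (median 1.44) and 10 of 18 (median 1.09), with Zbp1 (118 and 1.60 CPM with J2) and Irf7 (357 and 13.3 CPM with J2) furthest from 0.

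**Figure D5:**
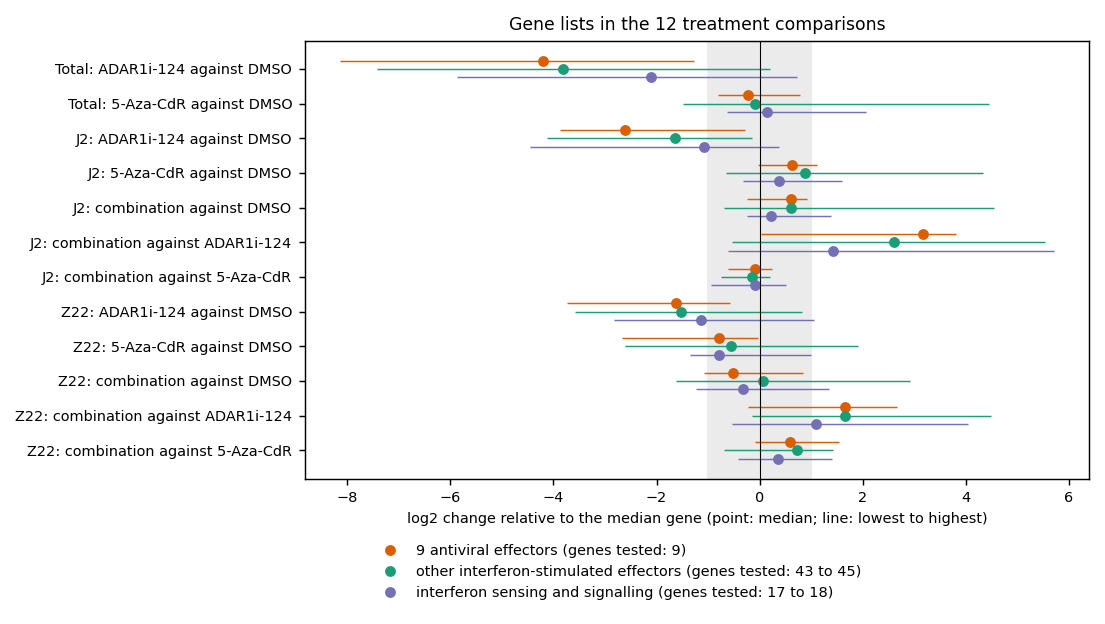
Median (point) and range (line) of the log2 change relative to the median gene for the 9 genes, the other interferon-stimulated effectors and the genes of interferon sensing and signalling, in the 12 treatment comparisons, with a grey band within 2-fold. The 9 genes lie at −4.20 in total RNA with ADAR1i-124, at −2.62 with J2 and −1.62 with Z22, and at 3.17 and 1.66 when the combination is set against ADAR1i-124.

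The pattern over the 11 libraries of total RNA, J2 and Z22 was compared with that of all 14071 genes, as Pearson's r of log2 values centred on each library's median and each fraction's mean. This is a description over libraries that share treatments. The genes most like Mx1 included Usp18, the protease that removes ISG15 (r = 0.993), and Trim30a, a TRIM family protein (0.988). For Rsad2 they were Ifit1, which binds viral RNA (0.992), Gm4070 (0.990) and Gm43197 (0.982). For Bst2 they were Znfx1 (0.995), Helz2 (0.994), both helicases, and Parp10, an ADP-ribosyltransferase (0.984). Without the Z22 library of DMSO, over 10 libraries, Mx1 was most like Mx2 (0.997), Dhx58 (0.995) and Trim34a (0.995), Rsad2 like Ifit1 (0.993), Gm4070 (0.990) and Ifit3 (0.987), and Bst2 like Znfx1 (0.994), Helz2 (0.993) and Dpt (0.990). Among the 9 genes themselves, over 11 libraries, r ran from 0.51 between Isg20 and Samhd1 to 0.99 between Mx2 and Ifi35, and the highest r of Samhd1 with any of the other 8 was 0.72.

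Beside these results, markers of other cell types were read in the same libraries. Of 8 leukocyte markers, Cd68 was above 1 CPM in all 12 libraries (6.46 to 75.4 CPM) and Ptprc was at 0 to 1.21 CPM. Summed over the list, leukocyte markers stood at 8.64 CPM with DMSO, 20.6 CPM with ADAR1i-124 and 80.3 CPM with 5-Aza-CdR in total RNA. The 4 endothelial markers summed to 4.23, 18.4 and 83.2 CPM in the same libraries, of which Cdh5 made up the largest part. Both sums were higher with ADAR1i-124 than with DMSO in total RNA and lower in precipitated RNA. With J2 the leukocyte sum was 60.2 CPM with DMSO and 7.22 CPM with ADAR1i-124, and the endothelial sum 8.95 and 3.75 CPM. With Z22 they were 15.8 and 13.3 CPM, and 7.33 and 4.36 CPM. After 5-Aza-CdR and the combination, the leukocyte sum was 18.3 and 19.3 CPM with J2, and 41.7 and 55.1 CPM with Z22. The endothelial sum was 61.9 and 61.4 CPM with J2, and 32.2 and 26.8 CPM with Z22, in the same order. Their part in the results was not tested.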

How the data were processed

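The authors deposited raw counts per gene, not normalized, with 1 column for each of 13 libraries, made from paired reads by STAR within snakePipes 2.8.0. The build is mm10 (GRCm38) per the labels, and the counting tool and its strand setting are not given in the sources used here. Identifiers were matched to GENCODE M21, which named 54495 of 54532 genes. Samples were grouped by GEO's titles. Doses and times follow the study's descriptions outside its methods section, and it does not give them separately for precipitated RNA.

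Counts were divided by the library total (CPM). Log2 changes used a pseudocount of 0.5 CPM, so changes of low genes come out too small, and were centred on the median of genes averaging 1 CPM or more. Ratios of single genes carry exact binomial intervals and levels exact Poisson intervals, at 95%. Both cover counting error only: without molecular identifiers, reads cannot be taken as separate molecules. The 3-count floor was 0.0868 to 0.367 CPM in the 12 libraries used. The fraction test used edgeR 4.0.16 with TMM factors in R 4.3.3, and DESeq2 1.42.0 as the alternative. There the 3 or 4 treatments stand in for replicates of a fraction, and nothing says that libraries came from separate cultures. The fold and fraction calculations were tested on simulated data. Other steps used Python 3.11.15, numpy 2.4.6, pandas 2.3.3, scipy 1.17.1 and matplotlib 3.10.9.

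Named genes were all 9 members, at most the 3 largest changes of each other list in a comparison, the 3 genes most like Mx1, Rsad2 and Bst2 (1 of which is not reported here), antisense genes over a member's exon, and Gm42418. Members and lists were chosen with earlier results of these data known. Alternatives were other scalings, pseudocounts of 0.1 and 2 CPM, other filters, a 4-fold line, DESeq2 and leaving out a treatment.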

Additional observations from a re-analysis of the deposited data

Results flagged for a closer look

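The change of 5-Aza-CdR against DMSO had opposite directions in different fractions for Mx1, Mx2, Rsad2, Bst2, Ifi35 and Xaf1, taking only changes that kept their sign under each scaling tried and whose counting interval relative to the median gene did not include 0. With 1 library per condition none of these differences was tested, and the share of all genes that meet this rule was not counted. Between J2 and total RNA the difference (log2, relative to the median gene) was 0.84 for Mx1, 1.34 for Mx2, 1.46 for Rsad2, 1.08 for Ifi35 and 0.55 for Xaf1, each gene being lower in total RNA and higher with J2, although the interval of the plain, uncentred ratio of Mx1 in total RNA included no change. Mx2 was higher with J2 and lower with Z22, a difference of −2.34. Bst2 was higher in total RNA and with J2 and lower with Z22, with differences of −3.28 from total RNA and −3.09 from J2. Both Z22 results rest on the DMSO library of Z22, in which Gm42418 took 34.9% of the counts.

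In the total RNA library of the combination, which was left out of all comparisons, Gm11626, the antisense gene over 290 exon bases of Ifi35, stood at 836 CPM (1042 counts). It was at 0.176 CPM (3 counts) in total RNA with DMSO, and Ifi35 itself had 67 counts in the combination library.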

How the results depend on the processing

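Of the values that answer a comparison, 366 stayed close to the reported value under an alternative and 30 moved. A median counted as close inside the rank interval of the 9 genes, which ran from −5.85 to −1.50 for total RNA with ADAR1i-124. A count was close when equal or not far apart, so these totals are a loose check. Of the values of single genes, 851 stayed close and 138 moved. Changes were judged there by counting error, and lists of similar genes by sharing at least 2 of 3 genes. Of the genes past 2-fold 1 changed sign: Ifi35 in Z22 with 5-Aza-CdR was at 0.059 on plain library totals. Changes within 2-fold turned more often: over 5 scalings 2 of 9 genes kept their sign in that comparison, 5 in Z22 for the combination against DMSO, and 7 to 9 in the others. The medians for total RNA and J2 with ADAR1i-124 stayed at −4.29 to −4.20 and −2.72 to −2.61 over 5 scalings. On plain library totals, Z22 with ADAR1i-124 against DMSO had a median of −0.81 with 4 genes lower (5.13% of all genes), Z22 with 5-Aza-CdR a median of 0.28 with 1 higher (52.1%) and 1 lower (4.1%), the combination against DMSO 3 higher (43.4%) and 0 lower (5.03%) with Z22 and 1 higher (8.21%) with J2, and the combination against 5-Aza-CdR 1 higher (2.28%) with Z22. Plain totals for the comparisons with IgG and total RNA were added after the data were seen. Without a filter on low values, ADAR1i-124 against DMSO in Z22 had a median of −1.16 with 5 lower (7.12%). In the Z22 comparison of the combination with DMSO, 0 were lower with TMM factors (15.1%), a pseudocount of 2 CPM (13.1%) or a 4-fold line (3.68%), and 1 higher and 0 lower without the 20 genes of highest share (32.7% and 9.07%) or without a filter (16.1% and 9.15%). At a 4-fold line, 4 were lower with ADAR1i-124 (3.8%) and 1 with 5-Aza-CdR (4.56%) in Z22, 2 higher in Z22 for the combination against ADAR1i-124 (3.11%), 0 higher there against 5-Aza-CdR (0.466%), and 0 higher in J2 with 5-Aza-CdR (2.9%). On that line ADAR1i-124 left 7 lower in total RNA (1.86%) and 6 with J2 (2.71%), and 6 were higher in J2 for the combination against ADAR1i-124 (4.84%). With ADAR1i-124 in J2, 7 were lower with a pseudocount of 2 CPM (7.04%) or without a filter (6.98%). In Z22, 6 were lower without the 20 genes of highest share (10.9%). For J2 and Z22 against total RNA, DESeq2 called 1 and 6 members higher (2.83% and 7.77% of all genes), and edgeR without a low-count filter called 4 and 7 (1.04% and 2.43%), and 1 for Z22 against J2 (1.12%). Leaving out one treatment gave 0 to 2 members higher for J2 and 0 to 2 for Z22 against total RNA, the 2 calls in each coming without DMSO, where 7.09% and 5.89% of all genes were called higher. Without treatment as a block 0 members were called in the 3 contrasts, as with it, and 0 had an unadjusted p under 0.05. The cause of these moves was not tested. The labels give no replicate numbers, so libraries were paired by treatment alone. In total RNA with ADAR1i-124, Mx1, Mx2 and Ifi44 rest on 5, 8 and 7 counts, which limits the precision of their ratios.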
